A study of Mus musculus with 6 samples.

Results

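The p53 pathway and the DNA damage response were examined in sorted mouse haematopoietic stem cells through 33 listed genes, 19 of them p53, its inhibitors and its transcriptional targets, and 14 of them damage kinases and repair genes. Members were the rows of the deposited expression table whose gene symbol is on the list. They came to 31 of the 19086 genes of the table, 17 in the p53 group and 14 in the damage and repair group, while Fas and Zmat3 were not analysed here. The cells carried the surface phenotype CD150+CD48– within the LSK (lineage-negative, Sca-1+, Kit+) fraction and came from C57BL/6 chimeras, lethally irradiated CD45.1 recipients that had received bone marrow of CD45.2 donors 2 months earlier. Donors were Zfp521-CKO mice, in which the zinc finger gene Zfp521 was to be deleted, or Zfp521fl/fl mice, which carry the floxed allele and served as controls, with 3 libraries for each genotype. The Cre driver, the floxed exons, the ages and any pooling of animals were not given in the sources used here, and no label names a gate for donor against residual recipient cells. No label ties a library to its own animal, so p-values reflect the spread between these libraries, part of which may be technical. In bulk RNA, fewer cells that express a gene and less of its RNA per cell cannot be told apart.

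p53, encoded by Trp53, is a transcription factor that is held at low levels by the ubiquitin ligase Mdm2 and its partner Mdm4. Damage kinases release it from this control, and it then switches on genes for cell cycle arrest, repair, metabolism and cell death, among them Mdm2 itself in a feedback loop. In haematopoietic stem cells p53 is known to restrain cycling and to govern survival after irradiation, and loss of several of the repair genes listed here is known to exhaust the stem cell pool. DNA is read by p53 through pairs of decamer half-sites, each with a central C and G flanked by purines on the left and pyrimidines on the right.

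The p53 half-site consensus was searched in RefSeq promoter windows of build GRCm38.p6, each running from 250 bases before a gene's start to 50 after it. The consensus equals its own reverse complement, so both strands are covered by a single search. Some genes had more than 1 window, and a match in any of them counted, which gives such genes more chances. Among the members with a match, Sesn1, Aen and Polk had 2 windows each, and a matching window of Aen is printed. In the p53 group 7 of the 14 genes with a window held at least 1 match (50%), against 1 of 12 in the damage and repair group (8.33%) and 858 of the 10472 genes of the expression table with a window (8.19%). The matches lay in Trp53, Mdm2, Ccng1, Sesn1, Aen, Ei24 and Polk, and in Fanca for the other group. The windows of Trp53 (chr11:69580109-69580408, plus strand), Mdm2 (chr10:117710709-117711008, minus strand), Ccng1 (chr11:40755237-40755536, minus strand), Aen (chr7:78895808-78896107, plus strand) and Fanca (chr8:123318527-123318826, minus strand) are printed because they place p53's letters at p53 itself, at its inhibitor, at targets described below and at the lone repair gene with a match. Capitals mark the half-site, whose first base lay at -75, -186, -185, -121 and -64 from the start, and a match describes letters, not binding.
Trp53: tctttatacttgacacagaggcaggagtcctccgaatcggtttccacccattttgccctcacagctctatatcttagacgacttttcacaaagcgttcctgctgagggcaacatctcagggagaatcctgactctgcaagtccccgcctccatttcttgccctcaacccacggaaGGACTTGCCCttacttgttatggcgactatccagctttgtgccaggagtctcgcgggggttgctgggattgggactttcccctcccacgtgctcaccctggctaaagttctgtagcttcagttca
Mdm2: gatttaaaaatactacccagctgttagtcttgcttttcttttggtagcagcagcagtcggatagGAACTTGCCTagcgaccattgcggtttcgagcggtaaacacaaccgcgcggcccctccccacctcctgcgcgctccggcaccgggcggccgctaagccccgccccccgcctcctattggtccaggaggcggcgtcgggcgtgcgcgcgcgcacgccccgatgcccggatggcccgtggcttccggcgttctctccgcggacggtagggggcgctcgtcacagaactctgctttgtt
Ccng1: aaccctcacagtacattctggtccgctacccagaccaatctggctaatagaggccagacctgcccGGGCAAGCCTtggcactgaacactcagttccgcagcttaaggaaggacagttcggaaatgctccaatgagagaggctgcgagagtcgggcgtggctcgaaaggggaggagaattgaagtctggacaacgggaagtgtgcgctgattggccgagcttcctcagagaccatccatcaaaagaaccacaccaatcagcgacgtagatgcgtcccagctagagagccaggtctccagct
Aen: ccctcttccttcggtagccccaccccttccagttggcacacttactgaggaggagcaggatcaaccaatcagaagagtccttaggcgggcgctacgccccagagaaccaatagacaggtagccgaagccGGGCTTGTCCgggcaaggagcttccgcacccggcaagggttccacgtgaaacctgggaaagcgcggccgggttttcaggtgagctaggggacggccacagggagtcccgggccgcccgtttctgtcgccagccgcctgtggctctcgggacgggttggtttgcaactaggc
Fanca: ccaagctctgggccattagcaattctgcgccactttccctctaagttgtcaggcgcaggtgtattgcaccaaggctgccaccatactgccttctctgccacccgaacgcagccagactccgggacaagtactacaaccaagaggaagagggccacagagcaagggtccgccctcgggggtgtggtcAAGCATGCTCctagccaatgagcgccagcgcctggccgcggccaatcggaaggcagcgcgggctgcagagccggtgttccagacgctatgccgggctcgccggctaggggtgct

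Library depth has to be read beside every value. The deposited values are log2(normalized count + 1), called the log2 level here, and they resolve into whole reads, with 56237262, 30698602 and 3137596 reads in replicates 1, 2 and 3 labelled Zfp521-CKO and 7396932 to 10689480 in the Zfp521fl/fl libraries. A log2 level of 3.96 in the shallowest library, Zfp521-CKO replicate 3, is 3 reads, and the same 3 reads are 2.07 to 2.80 in the controls. Zfp521 itself had 1519, 126 and 0 reads in libraries labelled Zfp521-CKO, against 0, 3 and 0 in the Zfp521fl/fl libraries (two-sided exact permutation p = 0.4 on log2 levels, n = 3 each, smallest possible p 0.1). In replicates 1 and 2 labelled Zfp521-CKO the targeted gene thus lay above every control, against the labels, while replicate 3 had no reads of it. The floxed exons are not given, so these reads cannot be placed inside or outside them. Higher or lower below refers to the label alone. Markers of HSCs were unevenly detected: of 10 listed, 8 to 10 had reads in libraries labelled Zfp521-CKO and 5 in each Zfp521fl/fl library. More than 3 reads were found for 10, 9 and 4 of them in replicates 1, 2 and 3 labelled Zfp521-CKO and for 5, 4 and 5 in the controls. Procr was at 0 in the 3 controls alone, while Slamf1 was at 0 in all libraries but Zfp521-CKO replicate 1. Their summed level was 242 to 1299 reads per 1000000 reads of the library (RPM) in libraries labelled Zfp521-CKO and 53.2 to 1398 in the controls. The 11 neutrophil and granulocyte markers, which the sort should remove, summed to 359, 14482 and 128101 RPM in replicates 1, 2 and 3 labelled Zfp521-CKO and to 125400 to 150372 in the Zfp521fl/fl libraries, none of the 11 being at 0 in any control. The 6 monocyte and macrophage markers summed to 19.1, 127 and 264 RPM in libraries labelled Zfp521-CKO and to 746, 624 and 458 in the controls, so these sums did not overlap. The 11 markers of cycling cells summed to 1330 to 2368 RPM in libraries labelled Zfp521-CKO and to 501 to 1397 in the controls. The part of these markers, of depth and of single libraries in the differences below was not tested, except where a value with a library left out is given.

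Between the genotypes as labelled, no member passed the test. The test was limma on the log2 levels with p adjusted over all genes tested, and 0% of the 16436 genes tested had an adjusted p under 0.05. Of the 31 members, 28 had a positive difference and 3 a negative one, or 22 and 9 after quantile normalization. Most of the transcriptome lay on the same side, with 12095 of 16436 genes on the positive side and a median over all genes of 1.63 log2 units. Scaling each library to a total of 1000000 put that median at 0.91 and quantile normalization at 0.22. At an unadjusted limma p under 0.05 there were 3 members, Aen, Parp1 and Xrcc5, all positive, while 5.09% of all genes tested were positive at that level. Xrcc5 had no reads in any control, and Parp1 had 3, 0 and 0 there. Both passed the filter on low values only through the libraries labelled Zfp521-CKO. In 5 members, those 3 with Rrm2b and Trp53bp1, every library labelled Zfp521-CKO lay above every Zfp521fl/fl library, against 7.17% of all genes tested. For 3 of the 5, Rrm2b, Trp53bp1 and Parp1, the value in Zfp521-CKO replicate 3 stood on 3 reads.

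**Figure D1:**
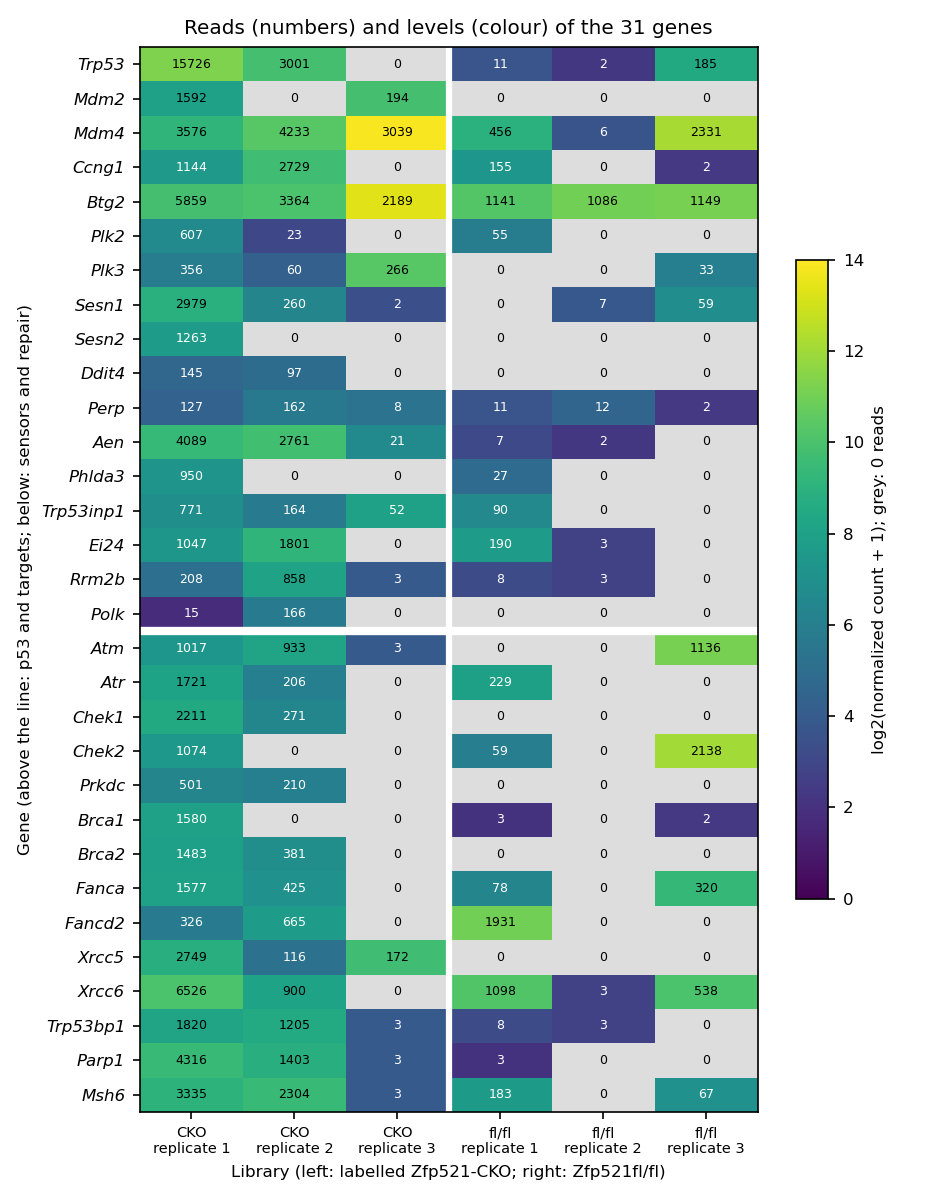
Log2(normalized count + 1) as colour and reads as numbers for the 31 genes (rows) in 6 libraries (columns), with the 3 labelled Zfp521-CKO on the left and the 3 Zfp521fl/fl on the right; grey cells have 0 reads. Btg2 and Mdm4 are filled in all 6 columns, while the lower rows are mostly grey in Zfp521-CKO replicate 3 and Zfp521fl/fl replicate 2.

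The p53 core was measured unevenly. Trp53 had log2 levels of 11.30, 9.87 and 0 in libraries labelled Zfp521-CKO, against 3.66, 2.26 and 8.52 in the Zfp521fl/fl libraries. It was high in 2 libraries of the first group and without reads in the third, so the groups overlapped (difference 2.24 ± 3.25, SE; limma adjusted p = 0.76). The count of 0 in Zfp521-CKO replicate 3 has a 95% exact Poisson upper limit of 1.18 RPM, where replicate 1 had 280 RPM (275 to 284, counting error only). Mdm2, the ligase that p53 both induces and is degraded by, had 1592, 0 and 194 reads in libraries labelled Zfp521-CKO and none in any control. That is at least 82.9-fold higher as a mean rate against a floor of 3 reads in each control. Yet 1 of the 3 libraries on the high side had none either (limma adjusted p = 0.61). Only the libraries labelled Zfp521-CKO carried Mdm2 past the filter on low values, and its p rests on controls identical at 0. Mdm4, which blocks p53's activation domain, was detected in all 6 libraries, with log2 levels of 9.17, 10.37 and 13.85 in libraries labelled Zfp521-CKO and 8.92, 3.63 and 12.18 in the controls (difference 2.89 ± 2.13, SE; limma adjusted p = 0.67). Its highest and second-highest values lay in replicate 3 of each genotype.

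Among targets that act on the cell cycle and growth, Btg2 had at least 1086 reads in every library. It encodes an antiproliferative protein that also promotes mRNA decay, and its log2 levels were 9.88, 10.04 and 13.38 in libraries labelled Zfp521-CKO and 10.24, 11.01 and 11.15 in the Zfp521fl/fl libraries. The controls lay between the pair of deeper libraries labelled Zfp521-CKO and the shallow one (difference 0.30 ± 1.18, SE; limma adjusted p = 0.93), and without that shallow library the difference was -0.84. Ccng1, which encodes cyclin G1 and carries the half-site printed above, had log2 levels of 7.53, 9.73 and 0 in libraries labelled Zfp521-CKO, against 7.37, 0 and 2.31 in the controls. Replicate 1 of both genotypes was thus alike for Ccng1, and the groups overlapped. The sestrins, which restrain mTORC1 and oxidative stress, were led by replicate 1 labelled Zfp521-CKO. Sesn1 had 2979, 260 and 2 reads in libraries labelled Zfp521-CKO and 0, 7 and 59 in the controls. Sesn2 had 1263 reads in that replicate and 0 in the other 5 libraries.

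Polo-like kinases 2 and 3, stress-responsive members of the Plk family, did not share a pattern. Plk2 had log2 levels of 6.62, 3.03 and 0 in libraries labelled Zfp521-CKO and 5.89, 0 and 0 in the controls. Plk3 had 5.86, 4.30 and 10.34 in libraries labelled Zfp521-CKO and 0, 0 and 6.05 in the controls, so its highest value fell in the library where Plk2 had no reads. Ddit4, which encodes the mTORC1 inhibitor REDD1, had 145, 97 and 0 reads in libraries labelled Zfp521-CKO and none in the controls. Differences for these genes ran from 1.25 to 4.82 log2 units, with limma adjusted p of 0.61 to 0.85.

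Aen had the largest difference of the p53 group. It encodes a nuclease of the apoptotic response to p53, and its log2 levels were 9.36, 9.75 and 6.69 in libraries labelled Zfp521-CKO, against 3.08, 2.26 and 0 in the Zfp521fl/fl libraries. Read counts behind these were 4089, 2761 and 21 in libraries labelled Zfp521-CKO and 7, 2 and 0 in the controls. The groups did not overlap, and the difference was 6.82 ± 2.42 log2 units (SE; limma adjusted p = 0.61). As a rate, even the lowest library labelled Zfp521-CKO, at 6.69 RPM (95% exact Poisson interval 4.14 to 10.2), lay above the highest control, at 0.65 (0.26 to 1.35). With reads thinned to 3137596 per library the difference was 6.55 ± 1.96 (SE; limma adjusted p = 0.60).

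Other death-related targets overlapped between the groups. Perp, a desmosomal and apoptotic membrane protein, was low in every library, with log2 levels of 4.42, 5.69 and 5.32 in libraries labelled Zfp521-CKO and 3.66, 4.57 and 2.31 in the controls. Trp53inp1, a stress-induced partner of p53, had 6.96, 5.70 and 7.99 in libraries labelled Zfp521-CKO and 6.59, 0 and 0 in the controls, so Zfp521fl/fl replicate 1 lay inside the range of the other group. Phlda3, an inhibitor of Akt, had reads only in replicate 1 of each genotype, 950 in the one labelled Zfp521-CKO and 27 in the control. Ei24, an endoplasmic reticulum protein, had 1047, 1801 and 0 reads in libraries labelled Zfp521-CKO and 190, 3 and 0 in the controls, so replicate 3 of both genotypes had none. All 4 had limma adjusted p of 0.61 to 0.91.

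Rrm2b and Polk are targets that serve repair directly, the first as the p53-inducible subunit of ribonucleotide reductase and the second as a translesion polymerase. Rrm2b had 208, 858 and 3 reads in libraries labelled Zfp521-CKO and 8, 3 and 0 in the controls. Its groups did not overlap on the log2 scale, but 3 reads of the shallowest library and 8 of Zfp521fl/fl replicate 1 correspond to 0.96 and 0.75 RPM, with overlapping 95% exact Poisson intervals of 0.20 to 2.79 and 0.32 to 1.47. Polk had 15, 166 and 0 reads in libraries labelled Zfp521-CKO and none in the controls. The 15 reads are 0.27 RPM, below the 95% exact Poisson upper limits of the controls, 0.35 to 0.50 RPM.

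**Figure D2:**
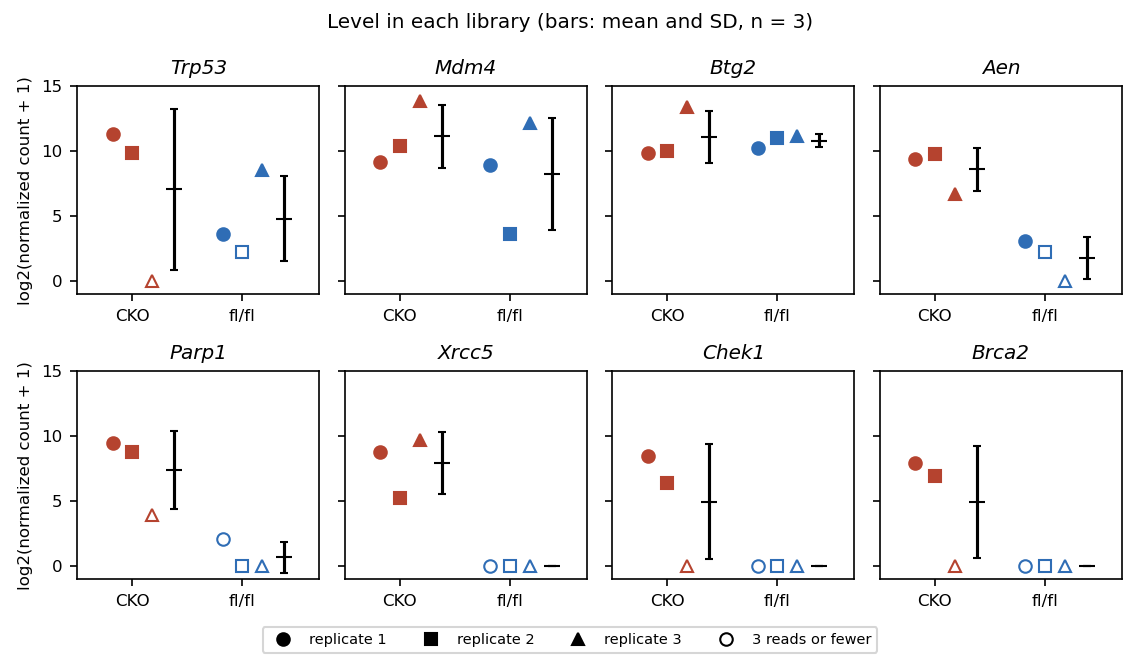
Log2(normalized count + 1) of 8 genes in each library, libraries labelled Zfp521-CKO on the left and Zfp521fl/fl on the right of each panel, with open symbols for 3 reads or fewer and bars for the mean and SD of n = 3. Aen, Parp1 and Xrcc5 have no overlap between the groups, and Btg2 lies between 9.88 and 13.38 in all 6 libraries.

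The damage kinases sense broken or stalled DNA and signal to p53. Atm, activated by double-strand breaks, had log2 levels of 7.36, 8.19 and 3.96 in libraries labelled Zfp521-CKO and 0, 0 and 11.14 in the Zfp521fl/fl libraries. The highest library was therefore a control, with 1136 reads, and the others of that group had none. Atr, activated by single-stranded DNA at stalled forks, had 8.12, 6.03 and 0 in libraries labelled Zfp521-CKO and 7.93, 0 and 0 in the controls. Chek2, the checkpoint kinase downstream of Atm, followed it only in part: it had 7.44, 0 and 0 in libraries labelled Zfp521-CKO and 5.99, 0 and 12.05 in the controls, a difference of -3.53 ± 3.48 (SE; limma adjusted p = 0.67). Like Atm, it was highest in Zfp521fl/fl replicate 3.

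Chek1 and Prkdc had no reads in any control library and passed the filter on low values only through the libraries labelled Zfp521-CKO. Chek1, the checkpoint kinase downstream of Atr, had 2211, 271 and 0 reads in libraries labelled Zfp521-CKO. Prkdc, the catalytic subunit of DNA-dependent protein kinase, had 501, 210 and 0. Against a floor of 3 reads per control library the mean rates were at least 44.3-fold higher for Chek1 and at least 14.5-fold higher for Prkdc, and for both the shallowest library labelled Zfp521-CKO was at 0 like the controls (limma adjusted p = 0.61 for each).

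Genes of homologous recombination and crosslink repair had no reads in Zfp521-CKO replicate 3 or Zfp521fl/fl replicate 2, for all 4 members. Brca2, a tumour suppressor of homologous recombination, had log2 levels of 7.90, 6.90 and 0 in libraries labelled Zfp521-CKO and no reads in any control, a mean rate at least 35.7-fold above the floor. Brca1, which promotes end resection, had 1580 reads in replicate 1 labelled Zfp521-CKO, none in the other 2 of that group, and 3, 0 and 2 in the controls. Fanca, of the Fanconi core complex, and Fancd2, its ubiquitinated effector, were measured in both genotypes. Fanca had 7.99, 7.06 and 0 in libraries labelled Zfp521-CKO and 6.39, 0 and 9.31 in the controls. Fancd2 had 5.74, 7.70 and 0 in libraries labelled Zfp521-CKO and 11.00, 0 and 0 in the controls, where Zfp521fl/fl replicate 1 held 1931 reads and was the highest of the 6. Neither gene separated the groups, with differences of -0.22 ± 3.21 for Fanca and 0.81 ± 3.5 for Fancd2 (SE; limma adjusted p = 0.98 and 0.94).

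Xrcc5 and Xrcc6 encode the partners of the Ku heterodimer, which binds DNA ends for end joining, and they parted. Xrcc5 (Ku80) had log2 levels of 8.79, 5.22 and 9.71 in libraries labelled Zfp521-CKO, from 2749, 116 and 172 reads, and no reads in any Zfp521fl/fl library. It was the only member with reads in all 3 libraries of the one group and in none of the other. The share of all genes with that exact pattern was not examined, so whether 1 of 31 is many or few cannot be said. Detection confined to the libraries labelled Zfp521-CKO, whatever their number, held for 25.8% of the 31 members and 35.6% of all 19086 genes. The mean rate of Xrcc5 was at least 98.8-fold above the floor (fitted difference 7.91 ± 2.48, SE; limma adjusted p = 0.61). The fitted size depends on the pseudocount and is no bound. Its SE and p rest on controls identical at 0, and only the high group carried Xrcc5 past the filter on low values. Xrcc6 (Ku70) had 10.04, 8.14 and 0 in libraries labelled Zfp521-CKO and 10.19, 2.74 and 10.06 in the controls, and its difference was -1.61 ± 3.09 (SE; limma adjusted p = 0.83). Both genes were therefore at opposite ends in Zfp521-CKO replicate 3, with 172 reads of Xrcc5 and 0 of Xrcc6, and in Zfp521fl/fl replicates 1 and 3, with 0 reads of Xrcc5 and 1098 and 538 of Xrcc6. Trp53bp1, which directs breaks to end joining, had 1820, 1205 and 3 reads in libraries labelled Zfp521-CKO and 8, 3 and 0 in the controls.

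Parp1, the sensor of single-strand breaks, had 4316, 1403 and 3 reads in libraries labelled Zfp521-CKO and 3, 0 and 0 in the controls. Its log2 levels of 9.44, 8.78 and 3.96 in libraries labelled Zfp521-CKO lay above 2.07, 0 and 0 in the controls (difference 6.70 ± 2.60, SE; limma adjusted p = 0.61). The separation from the controls in replicate 3 was between 3 reads and 3 reads, at different depths. Only the libraries labelled Zfp521-CKO carried Parp1 past the filter on low values. Msh6, the mismatch recognition subunit, was shared more evenly, with 9.07, 9.49 and 3.96 in libraries labelled Zfp521-CKO and 7.61, 0 and 7.07 in the controls.

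As groups, the p53 genes and the repair genes had medians close to each other, and no gene of either passed. The 17 p53 genes had a median difference of 2.56 log2 units, with 17 positive (13 after quantile normalization), and the 14 damage and repair genes a median of 2.70, with 11 positive (9 after quantile normalization), beside 1.63 over all genes tested. Genes without reads in any control numbered 8 of the 31 members, 4 in each group, or 25.8%, against 28.5% of the genes tested and 35.6% of all genes listed. Those 8 passed the filter on low values only through the libraries labelled Zfp521-CKO. With such genes set at their lower bound, the medians were 2.24 for the p53 genes, 2.24 for the repair genes and 0.59 over all genes tested. The repair median rested on single libraries: it was 0.84, below that of all genes (1.34), without Zfp521fl/fl replicate 2, 4.31 without Zfp521fl/fl replicate 1 and 4.41 without Zfp521-CKO replicate 3. The p53 median was 4.0 without Zfp521-CKO replicate 3. Relative to all genes, 13 of the 17 p53 genes and 9 of the 14 repair genes lay above the overall median.

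Zfp521-CKO replicate 3 and Zfp521fl/fl replicate 2 had reads for a larger share of the p53 genes than of the repair genes. Zfp521-CKO replicate 3 had reads for 9 of the 17 p53 genes and 5 of the 14 repair genes, against 33.8% of all genes. It had more than 3 reads for 7 and 1 of them. Zfp521fl/fl replicate 2 had reads for 8 p53 genes and 2 repair genes, against 32.1% of all genes, with more than 3 reads for 4 and 0. Zfp521fl/fl replicate 3, at 39.2% of all genes, had reads for 7 and 6. Of 26 further p53 targets and 57 further repair genes, Zfp521-CKO replicate 3 had reads for 9 and 17. Zfp521fl/fl replicate 2 had reads for 6 and 17 of these. Btg2 and Mdm4 made up 23.3%, 38.6% and 90.5% of the p53 group's reads in replicates 1, 2 and 3 labelled Zfp521-CKO, against 74.2%, 97.4% and 92.5% in the controls. The 14 repair genes together had 30236, 9019 and 184 reads in libraries labelled Zfp521-CKO and 3592, 6 and 4201 in the controls, which is 538, 294 and 58.6 RPM against 336, 0.81 and 563. Of the 184 reads, 93.5% were Xrcc5. The ranges of this summed level overlapped between the genotypes. The 17 p53 genes summed to 719, 641 and 1840 RPM in libraries labelled Zfp521-CKO and to 201, 152 and 504 in the controls, with no overlap. Without Btg2 and Mdm4, a pair chosen after their values were seen, the other 15 p53 genes summed to 552, 394 and 174 RPM in libraries labelled Zfp521-CKO and to 51.8, 3.92 and 37.6 in the controls, again with no overlap. The 26 further p53 targets examined below summed to 971, 982 and 357 RPM in libraries labelled Zfp521-CKO. In the controls they summed to 736, 640 and 810, so the groups overlapped, with Zfp521-CKO replicate 3 below every control. No test is given for a sum over chosen genes.

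**Figure D3:**
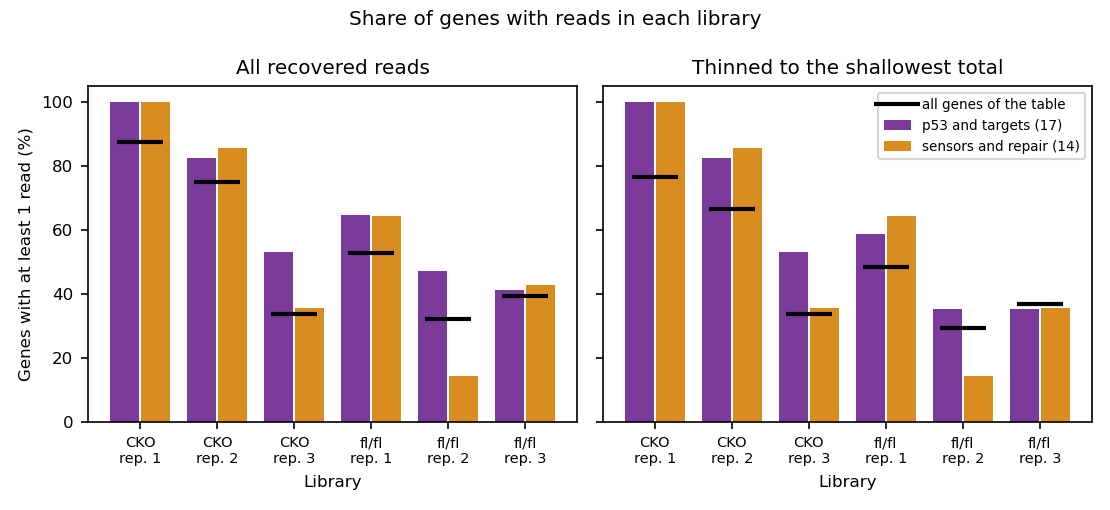
Share of genes with at least 1 read (y axis, percent) in each library, 3 labelled Zfp521-CKO on the left and 3 Zfp521fl/fl on the right of each panel, for the 17 p53 genes, the 14 sensor and repair genes and, as black marks, all 19086 genes. The left panel uses all reads and the right panel reads thinned to 3137596 per library; at that depth 31, 26 and 14 members keep reads in libraries labelled Zfp521-CKO and 19, 8 and 11 in the controls.

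Detection still differed between libraries at a common depth. Thinned to the same 3137596 reads, 31, 26 and 14 of the 31 members had reads in replicates 1, 2 and 3 labelled Zfp521-CKO, and 19, 8 and 11 in the Zfp521fl/fl libraries. Over all genes the same thinning left reads in 76.4%, 66.4% and 33.8% of genes in libraries labelled Zfp521-CKO and in 48.3%, 29.4% and 36.7% in the controls. Only 3 of the 31 members, Btg2, Mdm4 and Perp, had reads in all 6 libraries, against 3140 of all 19086 genes (16.5%). Among members with reads in both libraries of a pair, the median absolute difference was 1.35 log2 units between replicates 1 and 2 labelled Zfp521-CKO (26 genes), 3.45 between replicates 1 and 3 (14 genes) and 4.11 between replicates 2 and 3 (13 genes). Over all genes these pairs had 1.03, 2.26 and 2.15. In the Zfp521fl/fl libraries it was 0.91 between replicates 1 and 2 (9 genes), 2.14 between 1 and 3 (10 genes) and 4.66 between 2 and 3 (6 genes), beside 1.88, 1.49 and 1.63 over all genes.

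Calls appeared once Zfp521-CKO replicate 3 was left out. In the remaining 5 libraries 8 of the 31 members passed, all higher in replicates 1 and 2 labelled Zfp521-CKO than in the controls, where 15.2% of 16381 genes tested were called higher. They were Aen and Ddit4 among the p53 genes, and Chek1, Prkdc, Brca2, Xrcc5, Trp53bp1 and Parp1 among the repair genes. Parp1 rose by 8.42 ± 1.14 log2 units (SE; limma adjusted p = 0.012), Aen by 7.78 ± 1.43 (limma adjusted p = 0.027) and Chek1 by 7.45 ± 0.93 (limma adjusted p = 0.010). In all 8 the controls had at most 8 reads in a library, and in 5 of them none, so their fitted sizes depend on the pseudocount and are no bounds. Those 5, Chek1 among them, passed the filter on low values only through the libraries labelled Zfp521-CKO, and their SE and p rest on controls that are identical at 0. Of the 2496 genes called higher, 1720 likewise had no reads in any control. Parp1, with 3, 0 and 0 reads in the controls, also passed the filter on low values only through the libraries labelled Zfp521-CKO. Trp53, at 5.77 ± 2.40 (SE), did not pass (limma adjusted p = 0.26). With the reads also thinned to a common depth, 7 of the members were called, all but Xrcc5, against 15.4% of genes called higher.

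Weighting the libraries instead of dropping one gave fewer calls. With a weight per library, where Zfp521-CKO replicate 3 received 0.24 and the others 0.82 to 2.12, Aen, Parp1, Prkdc, Chek1 and Brca2 were called higher, 5 of 31 members against 9.93% of all genes. The smallest limma adjusted p of any gene in that fit was 0.047, so all of these calls lay close to the threshold. With voom precision weights and a weight per library on the recovered reads, 6 members were called higher, Aen, Trp53bp1, Parp1, Xrcc5, Chek1 and Brca2, against 12.1% of all genes. Prkdc, Chek1, Brca2 and Xrcc5 had no reads in any control. They passed the filter on low values only through the libraries labelled Zfp521-CKO, in these fits as in the one above. So did Parp1, which had 3, 0 and 0 reads in the controls. Neutrophil markers moved with this choice, since Zfp521-CKO replicates 1 and 2 had 359 and 14482 RPM in those markers and replicate 3 had 128101, and their part was not tested.

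**Figure D4:**
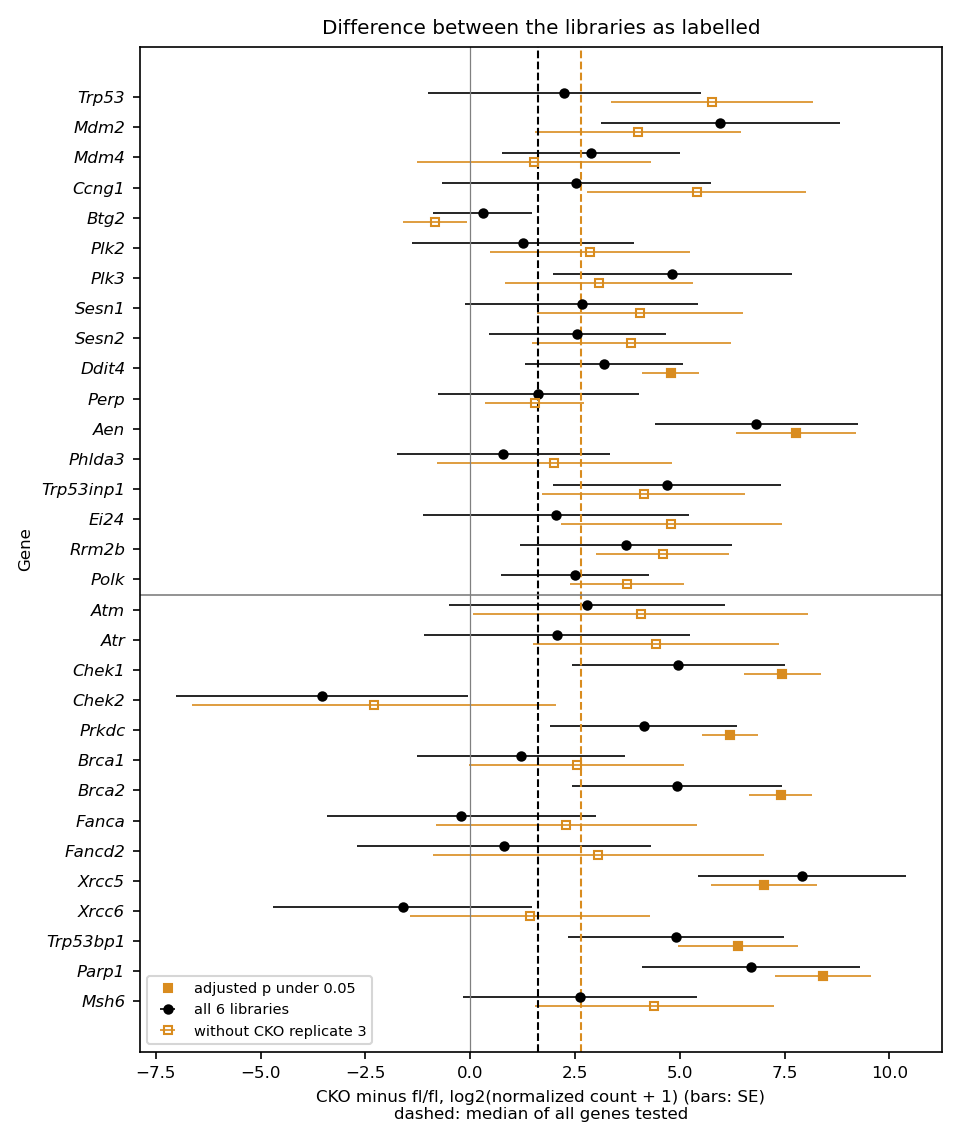
Difference of log2(normalized count + 1), libraries labelled Zfp521-CKO minus Zfp521fl/fl, for each of the 31 genes with its SE, from all 6 libraries (black circles) and without Zfp521-CKO replicate 3 (orange squares, filled where the limma adjusted p is under 0.05). Dashed lines mark the medians of all genes tested, 1.63 and 2.64; most genes lie to the right of them and Chek2 lies furthest to the left.

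Related genes outside the list gave no call either with all 6 libraries. Of 26 further p53 targets in the table, 22 were positive with a median difference of 2.70 log2 units and none passed the test. After quantile normalization 14 were positive with a median of 0.13, beside 0.22 over all genes. Those with the smallest p were Dcxr, a dicarbonyl and xylulose reductase, Cdc42bpg, a Cdc42-binding kinase, and Ddb2, which recognises ultraviolet lesions. Dcxr averaged a log2 level of 7.16 ± 3.26 in libraries labelled Zfp521-CKO and 0.89 ± 1.53 in the controls (SD, n = 3 each), while Cdc42bpg had no reads in the first group and averaged 6.33 ± 5.52 in the second. Ddb2 averaged 5.94 ± 5.17 in libraries labelled Zfp521-CKO and had no reads in the controls. Of 57 further damage response and repair genes, 47 were positive with a median of 2.39, or 35 with a median of 0.47 after quantile normalization, and none passed. Tonsl, Rad50 and Dclre1c had the smallest p. Rad50, of the complex that senses breaks, averaged a log2 level of 9.55 ± 0.82 in libraries labelled Zfp521-CKO and 2.90 ± 3.26 in the controls, and Dclre1c, the nuclease Artemis, averaged 6.16 ± 1.91 against no reads in the controls (SD, n = 3 each). Tonsl, which acts at stalled forks, averaged 12.41 ± 1.27 in libraries labelled Zfp521-CKO and 4.47 ± 1.88 in the controls, a difference of 7.94 (limma adjusted p = 0.61 for each of these 6 genes). Dcxr had 5, 0 and 0 reads in the controls and 2 in Zfp521-CKO replicate 3. Dcxr, Ddb2 and Dclre1c passed the filter on low values only through the libraries labelled Zfp521-CKO, and Cdc42bpg only through the controls. For Ddb2, Dclre1c and Cdc42bpg the p rests on a group identical at 0. Without Zfp521-CKO replicate 3, 6 of the 26 targets and 14 of the 57 repair genes were called higher, beside the 15.2% of all genes.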

How the data were processed

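Sorted-cell RNA was sequenced on Illumina libraries (labels' protocols). Build mm9, Bowtie and DESeq2 1.26.0 stand in the submitters' processing notes without roles; counter, strand setting and annotation: not given in the sources used here. Although named FPKM, the table holds log2 values, which the authors deposited as log2(reads scaled per library + 1). Whole reads were recovered at a tolerance of 0.001 read for 99.7% of values above 0; the 213 others lay in 1 block of 75 rows that holds no member. They were rounded to whole reads where reads were used. Since counting strand is not given, 16 of the 31 members that overlap another annotated gene (GENCODE M21, another build than mm9), 7 of them a protein-coding one, may hold its reads.

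Genotype was tested with limma 3.58.1 in R 4.3.3 (trend, two-sided) on genes with a mean normalized count of at least 1, with Benjamini-Hochberg adjustment at 0.05 over all genes tested; all 31 members passed that filter. Leaving out a library applied the filter to the others. Intervals are 95% exact Poisson and, like the floor of 3 reads, cover counting error only. Members, lists and tests were chosen with earlier results of these data known. All members are named, and in each further list the 3 genes of smallest p. The fit was run on simulated counts in which only well-expressed genes were changed and the large spread between these replicates was not modelled. That run cannot show how the test behaves on these data. Alternatives were another pseudocount, filters, scalings, library weights, voom, thinning, a replicate block and left-out libraries. Markers of T cells and all but 1 of B cells were not analysed here. Promoter sequences are RefSeq's.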

Additional observations from a re-analysis of the deposited data

How the results depend on the processing

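Across all genes tested, 0 were called, while 836 were higher and 81 lower with an unadjusted p below 0.05. Quantile normalization called 17, voom on reads 161, a weight per library 1660 and voom with a weight per library 2034. Leaving out each library in turn called 0 to 2530, the upper figure without Zfp521-CKO replicate 3, and thinned reads without that library, an alternative chosen after seeing the data, called 2564. Over 22 alternatives the 31 members gave 652 differences, of which 590 kept their direction and their side of the threshold, 26 newly passed and 36, in 9 members, changed sign. The cause of these changes was not tested. No changed sign belonged to a call.

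Under quantile normalization the difference was -0.70 for Plk2, -1.26 for Perp, -0.40 for Phlda3, -0.37 for Ei24, -0.25 for Brca1 and -1.91 for Fancd2. Scaling to a total of 1000000 gave 0.082 for Fanca and -0.079 for Fancd2, and thinned reads gave 0.079 for Fanca. A weight per library gave -0.61 for Btg2, 1.02 for Fanca and 0.076 for Xrcc6. With voom on reads they were -0.17 for Btg2, 0.84 for Fanca and 0.30 for Xrcc6. Voom with a weight per library gave -0.25 for Btg2, -0.82 for Phlda3, -0.74 for Brca1, 1.16 for Fanca and 0.55 for Xrcc6. Thinned reads without Zfp521-CKO replicate 3 gave -0.29 for Btg2, 2.10 for Fanca and 1.51 for Xrcc6. Leaving out each library in turn gave -0.84 to 0.90 for Btg2, -0.45 to 3.22 for Plk2, -1.63 to 2.42 for Phlda3, -1.46 to 2.54 for Brca1, -2.83 to 2.29 for Fanca, -1.02 to 4.48 for Fancd2 and -4.07 to 1.42 for Xrcc6. With each library left out, group medians ranged from 2.23 to 4.0 for the p53 genes and from 0.84 to 4.41 for the repair genes. Under quantile normalization they were 0.97 and 1.12, at a total of 1000000 they were 1.87 and 1.63, and the 3 p53 genes with reads in all 6 libraries had 1.63.

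With the replicate number as a block 0 genes were called, the group medians were 2.56 and 2.70, and no call changed. Deviations of same-numbered libraries had r of -0.041 to 0.031. No repair gene had reads in all 6 libraries, so that alternative gave no repair median. The floor of 3 reads is 0.96 RPM in Zfp521-CKO replicate 3, against 0.28 to 0.41 in the controls, and lower levels were not detectable there. The part of depth in the counts of 0 was not tested.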

Other observations

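The p53 half-site consensus was also counted in the promoter windows of the further lists. It was found in 7 of 21 further p53 targets with a window (33.3%) and in 3 of 45 further damage response and repair genes (6.67%), beside 8.19% of all genes of the expression table. The 3 repair genes were Brip1, a helicase that partners Brca1, Neil1, a base excision glycosylase, and Fancg, of the Fanconi core complex. Many p53 sites lie outside such windows, in introns for instance, and these shares count letters only.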
